A study of Mus musculus with 19 samples.

Results

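The genes described here are 83 developmental transcription factors of the homeobox, T-box, paired-box, Sox, forkhead and Gata families, out of 12778 genes in the deposited expression matrix. They were chosen by name alone, as every gene whose symbol begins with Hox (clusters A to D), Tbx, Pax, Sox, Fox (a to s), Gata, Dlx, Meis, Pbx, Msx, Nkx, Lhx or Irx followed by a number, together with the numbered relatives of Six3, leaving out Sox2, Sox3, Tbx3 and Foxm1. The name rule fits 176 annotated protein-coding mouse genes, and those outside the 83 were not analysed here, apart from values quoted from the authors' deposited tables. How genes were selected for the matrix is not given in the sources used here, so a count over the 83 describes the genes that the matrix holds and not the whole families. The question was which lineage factors, including those of the fibroblasts from which reprogramming starts, were expressed by mouse cells that lack both the miR-290 and the miR-302 microRNA clusters.

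Polyadenylated RNA was measured by QuantSeq, which sequences 1 fragment near the 3′ end of each transcript, in 19 libraries. The reprogrammed cells (iPSC, or iPSC-like cells) had been made from mouse embryonic fibroblasts with Oct4, Sox2 and Klf4, and were collected more than 18 passages later. The 4 reprogrammed groups were wild type (WT, 3 libraries), knockout (KO) of the miR-290 cluster (2 colonies with 2 libraries each), KO of the miR-302 cluster (2 colonies with 2 libraries each) and KO of both clusters (double KO, 2 colonies with 2 libraries each). Embryonic stem cells (ESC) with the miR-290 KO and with the miR-302 KO gave 2 libraries each. All cells grew in medium with LIF and fetal bovine serum. Colonies were derived separately, and the WT iPSC libraries are excepted from that statement, so the spread among the WT libraries may be technical and a property of that derivation would enter every comparison with WT.

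Developmental transcription factors bind DNA and set the position or the lineage of a cell in the embryo. HOX proteins, encoded in 4 clusters and bound to DNA together with MEIS and PBX partners, mark position along the body and the limb; fibroblasts in culture keep much of the HOX pattern of the place they came from. Pluripotent cells hold most of these genes silent or low, with Polycomb complexes on their promoters, and express a few family members of their own, such as Foxd3 and Sox15.

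Products of the 2 microRNA clusters are shown here because at least 5 of them share the bases that choose a target. A microRNA pairs with messenger RNAs, mostly in 3′ untranslated regions, through its seed, bases 2 to 8, which stand in capitals. Not every product of the 2 clusters had a sequence in the source used. The sequences are from RefSeq (GRCm38.p6), 5′ to 3′.
mmu-miR-291a-3p: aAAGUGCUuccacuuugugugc
mmu-miR-294-3p: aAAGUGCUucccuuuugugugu
mmu-miR-295-3p: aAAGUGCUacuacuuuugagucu
mmu-miR-302b-3p: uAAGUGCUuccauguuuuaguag
mmu-miR-302d-3p: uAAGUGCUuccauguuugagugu
mmu-miR-302c-3p: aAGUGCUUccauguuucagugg
The miR-290 cluster lies on chromosome 7 (mmu-miR-294-3p at chr7:3220691-3220712, plus strand) and the miR-302 cluster on chromosome 3 (mmu-miR-302b-3p at chr3:127545275-127545297, plus strand). Of the 6 sequences, the 3 from the miR-290 cluster and mmu-miR-302b-3p and mmu-miR-302d-3p have the seed AAGUGCU, and mmu-miR-302c-3p, as RefSeq gives its start, has AGUGCUU. Of the other products of the miR-290 cluster with a sequence at hand, mmu-miR-290a-3p has the seed AAGUGCC, mmu-miR-291b-3p AAGUGCA and mmu-miR-293-3p GUGCCGC. The seed is therefore not common to the whole cluster. Mature microRNAs are not captured by this assay, so the knockouts themselves were not checked here.

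The libraries held 6344971 to 24728446 reads (median 17105222), recovered as whole numbers from the deposited log2 values. Levels below are in CPM, reads scaled to a common library size, which for 3′ end counting are not divided by transcript length. Group means are given ± SD over colonies, or over libraries for WT iPSC and ESC. The label of the double KO cells as iPSC was checked against 11 pluripotency markers: their summed level was 172 to 288 CPM in the 4 double KO libraries, 3030 to 3730 CPM in WT iPSC and 3000 to 4820 CPM in the single-knockout iPSC. All 11 markers were lower than in WT by the test used below. The second library of colony 1 of the miR-302 KO iPSC stood apart from its group (mean correlation 0.852 with the other libraries of the group, against 0.904 or more in every other library), and it had reads for 63 of the 83 members. In RNA of many cells together, fewer cells with a transcript and less transcript per cell cannot be told apart.

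The double KO cells carried far more messenger RNA of these families than any other group. The 83 members together made up 3930 ± 544 CPM in double KO iPSC (n = 2 colonies), 728 ± 23.8 CPM in WT iPSC (n = 3), 1290 ± 15.5 CPM in miR-290 KO iPSC (n = 2) and 755 ± 27.2 CPM in miR-302 KO iPSC (n = 2). The ESC groups had 1070 ± 88.6 CPM with the miR-290 KO and 822 ± 80.7 CPM with the miR-302 KO (n = 2 each). In the double KO, 40 members reached a mean of 10 CPM and 5 reached 100 CPM, against 21 and 0 in WT. At the same time 8 members had no read in any double KO library, against 0 in WT. Their WT means were 0.278 to 3.67 CPM, apart from Foxd3 at 29.0 CPM. The shares of all genes at these levels were not computed. A count of 0 over the group allows a level of up to 0.048 CPM, counting error alone considered.

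Against WT iPSC, 35 of the 83 members were higher in the double KO and 20 were lower (limma on the deposited log2 values, Benjamini-Hochberg adjusted p under 0.05 over all genes). In the same comparison 49.0% of all 12778 genes were called, 27.4% higher and 21.5% lower. The median log2 fold change was 0.85 over the members and 0.16 over all genes. All 55 calls were changes of at least 1 on the log2 scale. In 29 members all 4 double KO libraries lay above all 15 other libraries, and in 9 all 4 lay below; over the genes with recovered reads these shares were 19.9% and 12.1%. Of the members 42.2% were higher, against 27.4% of all genes, and 24.1% were lower, near the 21.5% of all genes. The account that follows takes both directions by role.

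**Figure D1:**
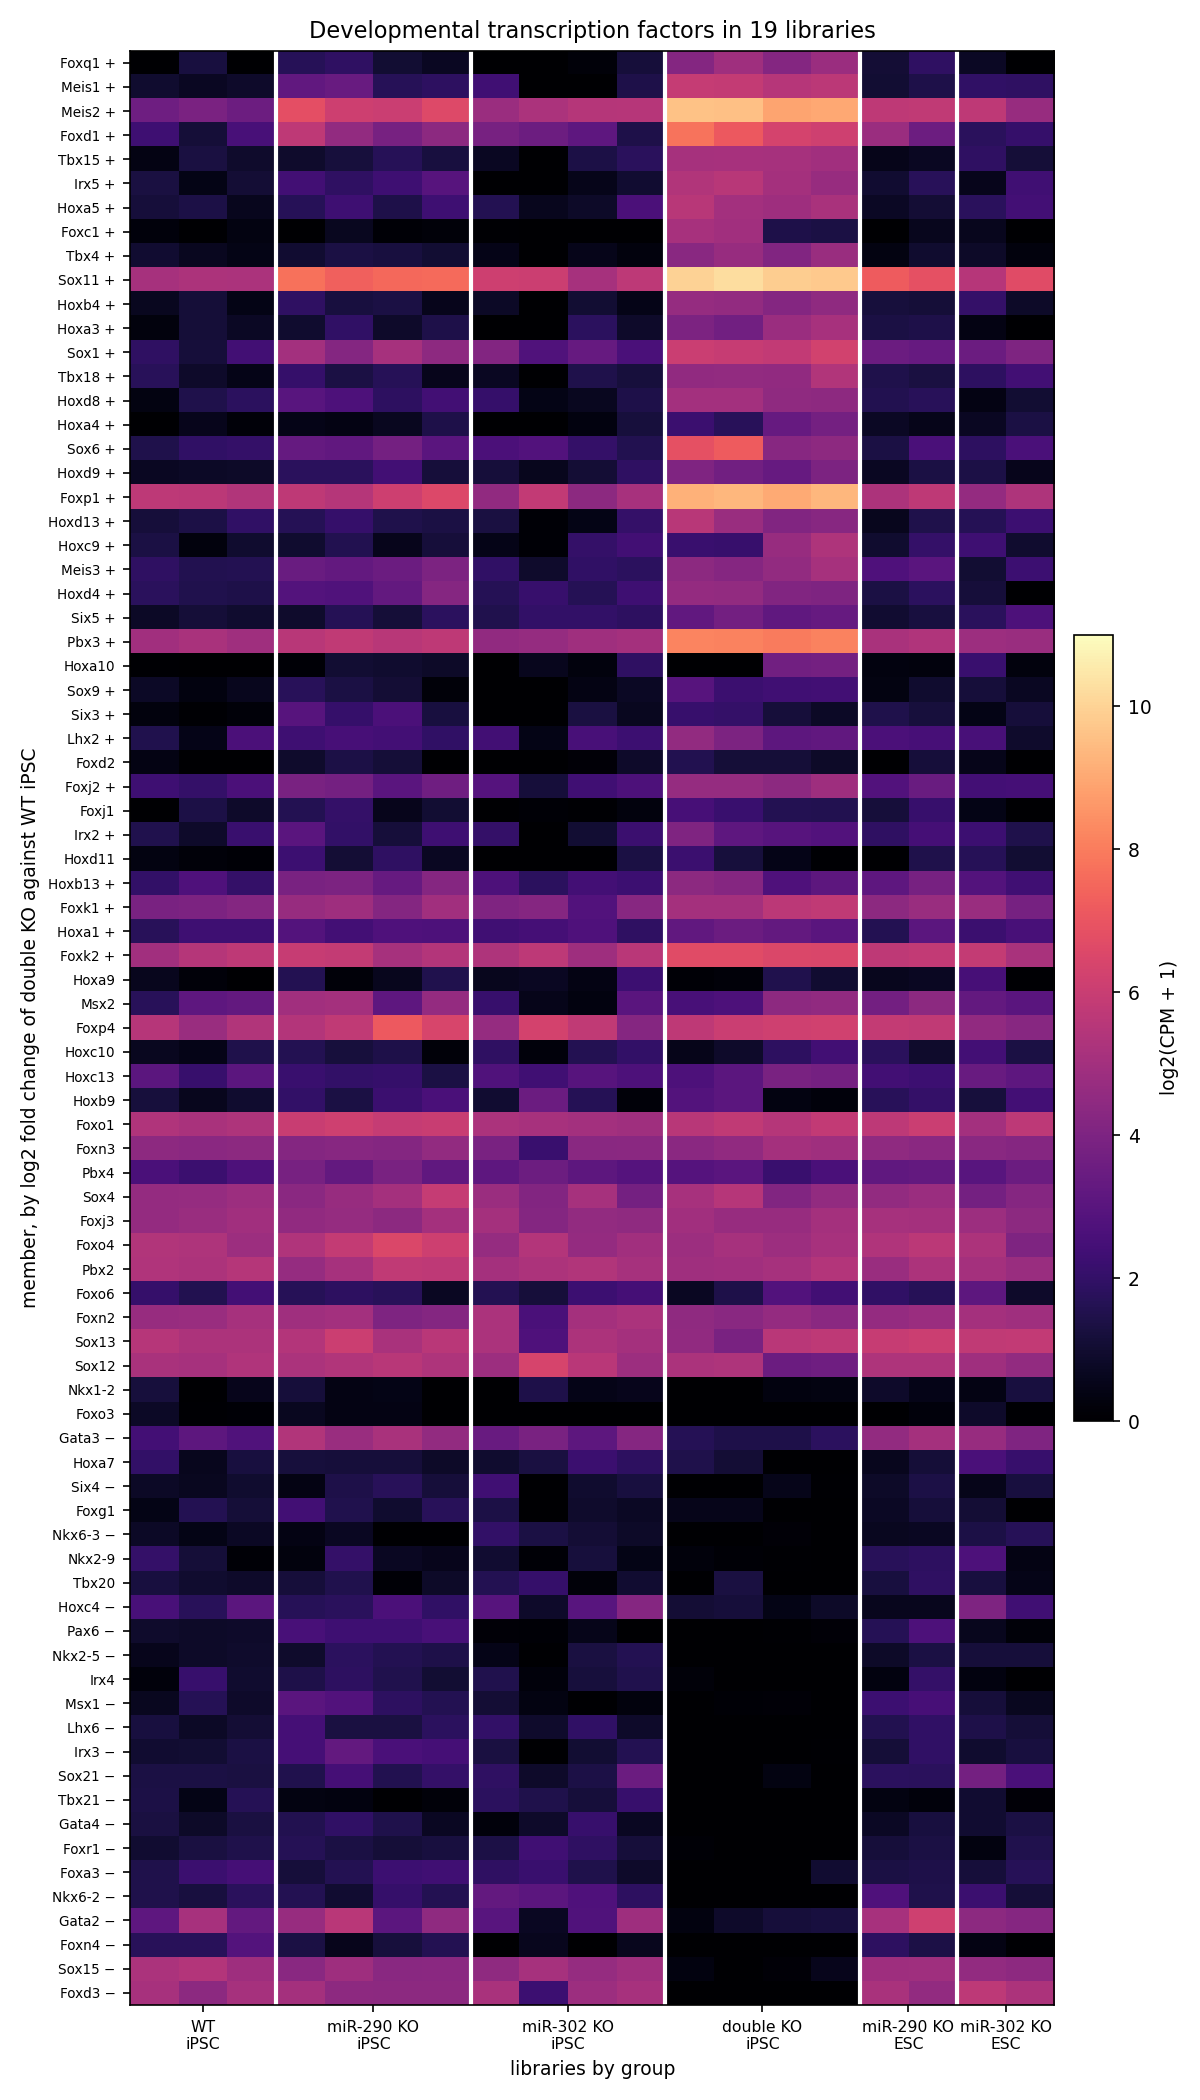
Levels of 81 members (rows, ordered by the log2 fold change of double KO against WT iPSC; + called higher, − called lower) in the 19 libraries (columns, by group), as log2(CPM + 1). The double KO columns are brightest at the top and darkest at the bottom, where 8 members have no read.

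The most abundant of the members that rose were Sox11, Meis2, Foxp1, Pbx3 and Foxd1, which together held 67.5% of the members' CPM in the double KO and 17.8% in WT. Sox11, a SOX factor of immature neurons and mesenchyme, was at 1030 and 1210 CPM in the libraries of colony 1 of the double KO and at 929 and 873 CPM in those of colony 2. The WT libraries had 33.2, 37.3 and 36.2 CPM, and the group with the next highest level, miR-290 KO iPSC, had 160 to 215 CPM. The 4 double KO libraries stood above every other library, and the rise against WT was 4.81 ± 0.32 on the log2 scale (limma, adjusted p = 1.5e-07). Meis2, a HOX partner of limb, face and brain, was at 782 and 748 CPM in colony 1 and 485 and 514 CPM in colony 2, against 10.9 to 14.1 CPM in WT. No library of another group passed 112 CPM, and Meis2 rose by 5.70 ± 0.31 (limma, adjusted p = 2.13e-08).

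Foxp1, a forkhead factor of many tissues that includes limb mesenchyme and heart among its sites, was at 591, 657, 524 and 653 CPM in the double KO libraries. WT had 51.1, 49.5 and 41.1 CPM, and the other reprogrammed libraries spread from 20 to 93.7 CPM. Both double KO colonies were alike and far above that spread (log2 fold change 3.68 ± 0.29, limma, adjusted p = 6.45e-07). Pbx3, another HOX partner, was at 290, 279, 250 and 285 CPM, against 30, 35.5 and 29.5 CPM in WT. Its log2 fold change was 3.12 ± 0.20 (limma, adjusted p = 1.05e-07), and no other group had a library above 53.7 CPM. Foxd1, a factor of kidney stroma and dermal fibroblast precursors, was less even, at 219 and 138 CPM in colony 1 and 79.3 and 71.6 CPM in colony 2. WT had 3.88, 1.18 and 4.89 CPM, so that Foxd1 still rose by 5.26 ± 0.67 (limma, adjusted p = 4.62e-05). Reads of Foxp1 may include those of a pair of overlapping gene models on the same strand, since the way the authors counted such reads is not given in the sources used here.

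**Figure D2:**
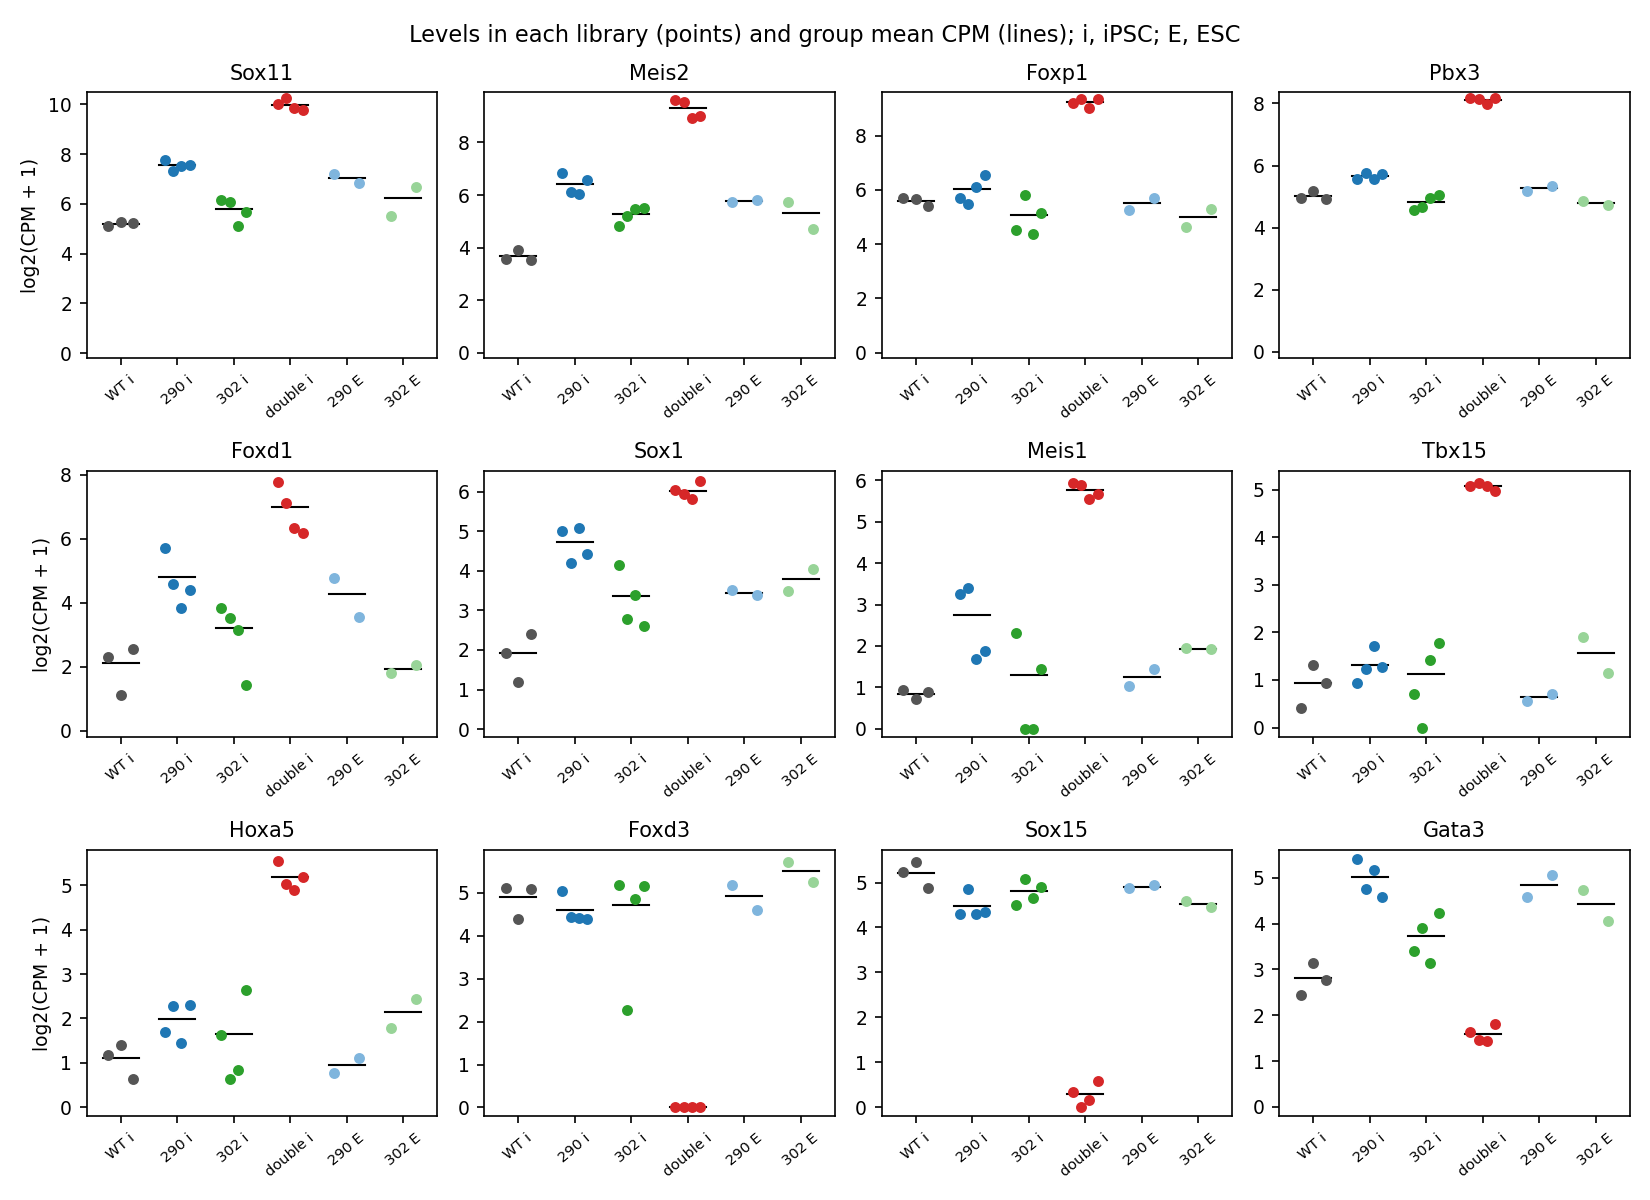
log2(CPM + 1) of 12 members in each library (points; i, iPSC; E, ESC; the numbers name the knocked-out cluster) with the log2(mean CPM + 1) of each group (lines). Sox11 to Hoxa5 are highest in the 4 double KO libraries, Foxd3 has no read there, and Gata3 is lowest there and highest in miR-290 KO iPSC.

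Among the HOX genes, 11 of the 19 members rose in the double KO, 1 fell (Hoxc4) and 7 did not pass the test, with a median log2 fold change of 3.06. By cluster, 4 of 7 members rose in cluster A, 2 of 3 in B, 1 of 4 in C and 4 of 5 in D. Of the 6 genes numbered 1 to 4, which mark hindbrain and neck levels, 5 rose and 1 fell. Of the 10 numbered 9 to 13, which mark the trunk end and the distal limb, 4 rose. Hoxa5 was at 45.9 and 31.5 CPM in colony 1 and 28.7 and 35.4 CPM in colony 2, against 1.26, 1.66 and 0.559 CPM in WT (log2 fold change 4.85 ± 0.55, limma, adjusted p = 1.66e-05). Hoxb4 was at 24.2, 22.7, 17.0 and 21.4 CPM, against 0.349 to 1.18 CPM in WT (4.76 ± 0.65, adjusted p = 7.73e-05). For both genes the double KO libraries lay above those of all other groups, where no library passed 5.22 CPM.

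Hoxd13, the factor of the distal limb, was at 45.8 and 26.2 CPM in colony 1 and 16 and 18.4 CPM in colony 2, and the WT libraries had 1.26 to 2.93 CPM. It rose by 3.65 ± 0.62 (limma, adjusted p = 0.000408). Hoxd8 rose by 4.32 ± 0.73 (limma, adjusted p = 0.00038) and Hoxa3 by 4.75 ± 0.98 (limma, adjusted p = 0.00163), with double KO means of 26.3 ± 7.22 and 21.9 ± 12.1 CPM. Exons of Hoxa3 overlap 4 antisense gene models and 1 on the same strand, and exons of Hoxd4 overlap Hoxd3. Their reads may therefore in part be those of a neighbour. The HOX genes were not alike in the 2 colonies. Hoxa10 had no read in either library of colony 1 and 11.7 and 12.7 CPM in colony 2, and did not pass the test (log2 fold change 3.06 ± 1.46, limma, adjusted p = 0.101). Hoxc9 was at 3.53 and 3.40 CPM in colony 1 and at 25 and 39.1 CPM in colony 2. Hoxb9 was the reverse, with 6.15 and 7.31 CPM in colony 1 and 0.291 and 0.183 CPM in colony 2. These 3 genes, numbered 9 or 10, had the widest differences between colonies among the HOX members with at least 5 CPM in a colony. Hoxc4 had 1.15, 1.30, 0.349 and 0.794 CPM in the double KO, against 4.87, 2.30 and 7.47 CPM in WT, a fall of 2.23 on the log2 scale (SE 0.73, limma, adjusted p = 0.0229). That call was lost without WT library 1 or 3 or colony 2 of the double KO. It was also lost with each library as a sample and the replicate number as a replicate block. The call of Hoxc9 was lost without WT library 2 or colony 2 of the double KO.

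**Figure D3:**
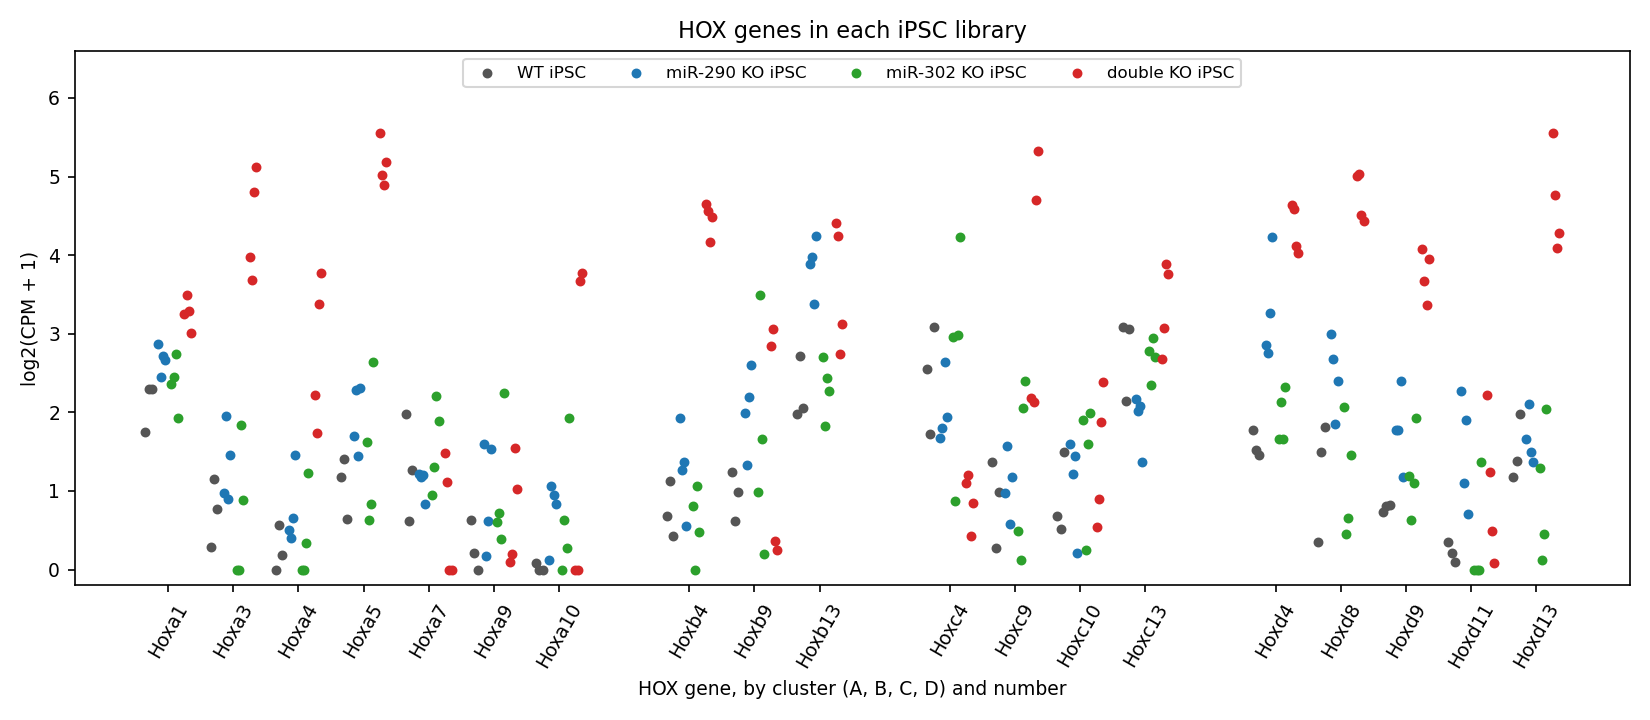
log2(CPM + 1) of the 19 HOX members in each library of the 4 reprogrammed groups, by cluster and number. The double KO points are the highest for Hoxa3, Hoxa4, Hoxa5, Hoxb4, Hoxd8, Hoxd9 and Hoxd13, and are split between colonies for Hoxa10, Hoxb9 and Hoxc9.

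Of the 7 HOX partners, 5 rose, the 3 Meis genes and Pbx3 among them, and 2 did not pass the test. Meis1 was at 59.9, 57.9, 45.5 and 49.5 CPM in the double KO, against 0.642 to 0.930 CPM in WT (log2 fold change 5.82 ± 0.58, limma, adjusted p = 5.56e-06). Pbx2 and Pbx4 had log2 fold changes of −0.27 ± 0.28 and 0.19 ± 0.35.

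A list of 32 factors of limb, face and connective tissue, the tissues from which embryonic fibroblasts come, was measured through 17 members. Of these, 12 rose, 4 fell, Msx1 and Irx3 among them, and 1 (Msx2) did not pass the test, with a median log2 fold change of 4.24. These genes were listed with earlier results of these data known, so their count is no independent evidence of a direction. Tbx15, a factor of limb and trunk dermis, was at 32.6, 34.1, 32.7 and 30.5 CPM in the double KO, against 0.328 to 1.5 CPM in WT, and no library of another group reached 3 CPM. It rose by 5.13 ± 0.77 (limma, adjusted p = 0.000166). Tbx4, the hindlimb and lung mesenchyme factor, was at 18.7, 25, 16.3 and 26.1 CPM, against 0.349 to 1.04 CPM in WT (4.82 ± 0.65, limma, adjusted p = 7.47e-05). Tbx18, a factor of mural cells and outer heart mesenchyme, was at 22.2, 23.2, 22.5 and 40.5 CPM, against 0.419 to 2.30 CPM (4.57 ± 0.75, limma, adjusted p = 0.000318). The 3 T-box genes were on in both colonies at similar levels. Irx5 rose by 5.11 ± 0.91 (limma, adjusted p = 0.000593) and Foxq1, a forkhead factor of hair follicle and epithelia, by 6.12 ± 1.14 (limma, adjusted p = 0.000817), from 0.463 ± 0.803 to 22.5 ± 1.23 CPM. Exons of Foxq1, Tbx18 and Meis1 overlap an antisense gene model each, and those of Meis1 a gene model on the same strand too.

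Colonies 1 and 2 differed in several of these factors, Msx2 and Foxd1 among them, with the widest ratios in Foxc1 and Sox6. Sox6, which acts in cartilage and muscle precursors, was at 116 and 144 CPM in colony 1 and 18.5 and 20.9 CPM in colony 2, and at 1.80 to 3.14 CPM in WT. Both colonies were above all other libraries, and Sox6 rose by 4.24 ± 0.76 (limma, adjusted p = 0.000582). Foxc1, a factor of head mesenchyme and blood vessels, was at 33.7 and 30.2 CPM in colony 1 and at 1.75 and 1.59 CPM in colony 2, against 0 to 0.279 CPM in WT (4.84 ± 1.13, limma, adjusted p = 0.00369). Without colony 1 the call of Foxc1 against WT was lost (limma, adjusted p = 0.0852).

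Fibroblast identity genes were measured beside these factors. Of 20 fibroblast markers the matrix held 9; 1 was called higher (Snai2, 3.13 ± 0.87, limma, adjusted p = 0.00984) and 4 lower (Thy1, Loxl1, Pdgfrb and Col5a1). Their summed level was 25.9 to 48.6 CPM in the double KO libraries, 20.1 to 24.4 CPM in WT and 31.6 to 55.6 CPM in miR-290 KO iPSC. Col1a1 (0.393 CPM), Thy1 (0.153 CPM), Pdgfrb (0.105 CPM) and Loxl1 (0.0146 CPM) were under 1 CPM in the double KO. Twist1, a mesenchymal factor, was at 5.32 ± 3.34 CPM against 0.728 ± 0.387 CPM in WT (2.55 ± 1.00, limma, adjusted p = 0.0508). Fibroblasts themselves were not among the libraries, so no level could be set beside that of the starting cells.

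Neural and neural crest factors moved in both directions. Of 31 listed genes 15 were members, of which 7 rose and 6 fell, with a median log2 fold change of 0.94. Sox1, the early neural plate factor, was at 64.9, 60.3, 55.3 and 75.9 CPM in the double KO, against 2.79, 1.28 and 4.26 CPM in WT (4.59 ± 0.41, limma, adjusted p = 2.14e-06). In miR-290 KO iPSC it was at 17.3 to 32.7 CPM, in miR-302 KO iPSC at 5.07 to 16.7 CPM and in the ESC libraries at 9.45 to 15.4 CPM, all above the WT libraries, and no library outside the double KO reached 55.3 CPM. Pax6, the factor of eye and forebrain progenitors, had 0, 0, 0.0582 and 0.122 CPM in the double KO. WT had 0.802 to 0.875 CPM and miR-290 KO iPSC 3.87 to 4.95 CPM, so Pax6 fell while Sox1 rose (−2.43 ± 0.60, limma, adjusted p = 0.00514). That call was lost without colony 1 of the double KO and with log2(CPM + 1). Sox21 (−3.13 ± 0.47, limma, adjusted p = 0.00017) and Irx3 (−3.07 ± 0.60, limma, adjusted p = 0.00107) fell too. Of the 6 measured neural markers 3 were higher (Ncam1, Nes and Sox1) and 2 lower (Tubb3 and Pax6), and their summed level was 610 to 657 CPM in the double KO libraries, against 73.7 to 156 CPM in WT, most of it from Ncam1 (495 ± 9.22 against 55.4 ± 22.5 CPM).

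All 3 GATA members fell. Gata4, a factor of heart and primitive endoderm, had no read in the double KO libraries, against 63 reads in WT, which makes it at least 25.8-fold lower. Gata2, of blood and trophoblast, was at 0.256, 0.868, 1.28 and 1.4 CPM in the double KO against 7.93, 34.3 and 8.87 CPM in WT (−3.81 ± 0.80, limma, adjusted p = 0.00186). Gata3, of trophoblast and ectoderm, was at 2.12, 1.74, 1.69 and 2.50 CPM against 4.43, 7.75 and 5.86 CPM (−1.50 ± 0.33, limma, adjusted p = 0.00235). The 4 double KO libraries had the lowest Gata3 levels of all 19. Foxa3, of gut endoderm, fell by 3.74 on the log2 scale (SE 0.65, limma, adjusted p = 0.000508). Nkx2-5, the heart factor, had no read in the double KO and was at least 15.1-fold lower than in WT. The call of Nkx2-5 was lost without either double KO colony and with log2(CPM + 1). Both measured members of the endoderm list of 8 genes fell. Of the 5 measured genes of the mesoderm, heart and vessel list of 15, Tbx18 and Foxc1 rose and Nkx2-5 and Gata2 fell.

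Foxd3 and Sox15, which pluripotent cells use themselves, had the largest falls of the 83 members. Foxd3, which pluripotent cells need for self-renewal and which later marks neural crest, had no read in any of the 4 double KO libraries. WT iPSC had 33.8, 20.1 and 33.0 CPM, and every other library had at least 3.84 CPM. On the counts Foxd3 was at least 600-fold lower than in WT, at least 506-fold lower than in miR-290 KO iPSC and at least 585-fold lower than in miR-302 KO iPSC (bound from 3 reads over the group), and limma gave −7.63 ± 0.38 against WT (adjusted p = 1.13e-08). Sox15, a SOX factor of pluripotent cells and muscle precursors, was at 0.256, 0, 0.116 and 0.488 CPM, against 36.6, 42.8 and 28.3 CPM in WT (−6.83 ± 0.33, limma, adjusted p = 8.53e-09). Both genes separated the double KO from all other libraries without overlap. Foxn4, of retina and spinal cord progenitors, was at least 72.4-fold lower than in WT and Nkx6-2, of ventral neural tube, at least 38.5-fold lower, from WT levels of 3.67 ± 2.33 and 1.88 ± 0.53 CPM. Tbx21, the T-cell factor, Lhx6, of forebrain interneurons, and Foxr1 had WT means of 1.39, 1.10 and 1.45 CPM and were also called lower. Exons of Sox15 overlap the antisense gene Mpdu1 and exons of Foxd3 a small gene model on the same strand. Those of Sox1 and Gata3 overlap a gene model on the same strand each, and those of Gata3 an antisense one too.

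Most of the broadly expressed forkhead factors did not pass the test. Of 12 measured, Foxj2, Foxk1, Foxk2 and Foxp1 rose, and the other 8 did not pass the test. Foxo1, which mediates insulin and stress signals, was at 50.0 ± 0.45 CPM in double KO iPSC, against 37.9 ± 2.62 CPM in WT iPSC (0.39 ± 0.23, limma, adjusted p = 0.177). Over these 12 the median was 0.36 on the log2 scale, against 0.16 over all genes.

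Lineage factors outside these families mostly fell. Of 46 listed, 31 were in the matrix, of which 5 rose and 19 fell, with a median log2 fold change of −2.81. The largest rises were those of Tfap2a (4.12 ± 0.34), Runx1 (4.02 ± 0.71) and Pitx1, the hindlimb factor (3.93 ± 0.70), with double KO means of 74.5, 18.8 and 23.7 CPM. The largest falls were those of Cdx1 (−8.54 ± 0.42), Pou3f1 (−5.59 ± 0.43) and Etv2 (−5.43 ± 0.40). The early mesoderm factor T fell by 4.88 on the log2 scale (SE 0.85, limma, adjusted p = 0.000482). Eomes (12.8 ± 5.01 against 12.3 ± 1.48 CPM) and Cdx2 (11.3 ± 15.3 against 3.25 ± 2.03 CPM) did not pass the test.

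Regulators of HOX genes were measured through 37 of 39 listed Polycomb and Trithorax genes. Of these, 11 rose, 9 fell and 17 did not pass the test, with a median log2 fold change of 0.09. Over all genes, 27.4% were higher and 21.5% lower. Cbx7, a Polycomb reader subunit which pluripotent cells use, went from 204 to 0.324 CPM (−8.88 ± 0.39, limma, adjusted p = 3.42e-09), while Cbx8 (3.64 ± 0.83) and the ring finger subunit Bmi1 (3.39 ± 0.29) rose to 13.4 and 112 CPM. Eed, a core subunit of the methylating complex, fell from 250 to 78.4 CPM (−1.66 ± 0.29). Of the other core subunits, Ezh2 rose (0.84 ± 0.22), Rbbp4 fell (−0.53 ± 0.15), and Suz12, Ezh1 and Rbbp7 did not pass the test. Ash2l, a subunit of Trithorax-type complexes, fell from 483 to 126 CPM (−1.94 ± 0.20). Whether these levels bear on the HOX genes was not tested.

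The miR-290 KO alone gave 5 called members, all higher than in WT, where 1.57% of all genes were called and 1.21% were higher. They were Meis2, Sox1, Sox11, Gata3 and Foxd1. Meis2 was at 112 and 68.7 CPM in colony 1 and 64.0 and 94.7 CPM in colony 2 (2.80 ± 0.31, limma, adjusted p = 0.00284), Sox1 at 31.3, 17.3, 32.7 and 20.5 CPM (3.23 ± 0.41, limma, adjusted p = 0.00499) and Sox11 at 215, 160, 184 and 190 CPM (2.38 ± 0.32, limma, adjusted p = 0.00599). For these 3 genes every miR-290 KO library lay between the WT libraries and the double KO libraries. Gata3 was at 41.4, 26.0, 35.0 and 22.9 CPM (2.35 ± 0.33, limma, adjusted p = 0.00689), above WT, whereas the double KO was below WT. Foxd1 was at 51.8, 23.2, 13.2 and 19.9 CPM (3.0 ± 0.67, limma, adjusted p = 0.0476). The median log2 fold change of the members was 0.79, against 0.14 over all genes, and 29 members had an unadjusted limma p under 0.05. The share of all genes under that unadjusted threshold was not computed, and the 1.57% is at the adjusted one. All 5 calls were lost without colony 2 of the miR-290 KO, a fit that rests on 1 colony and in which calls were lost over all genes too. Over the alternative settings the log2 fold change ran from 2.66 to 2.93 in Meis2, 2.78 to 3.59 in Sox1 and 2.25 to 2.42 in Sox11. It ran from 2.15 to 2.55 in Gata3 and from 2.41 to 3.54 in Foxd1. The call of Foxd1 was lost in 9 of 20 alternative settings.

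In miR-302 KO iPSC no member was called against WT by limma, where 0.0313% of all genes were called, 0.0235% higher and 0.00783% lower. An unadjusted limma p under 0.05 was found in 12 members, and the share of all genes under it was not computed. The median log2 fold change of the members was −0.08, against −0.11 over all genes. Meis2 was at 27.1, 36.3, 43.4 and 44.8 CPM, above all 3 WT libraries in every library, with a log2 fold change of 1.65 ± 0.31 that did not pass the adjustment (limma, adjusted p = 0.0997). Foxn4 was at 0 to 0.548 CPM against 2.30 to 6.35 CPM in WT (−3.44 ± 0.67, limma, adjusted p = 0.12). A fit without colony 2 of the miR-302 KO rests on colony 1 alone, which holds the library that stood apart, so its count is not given. Over the alternative settings the log2 fold change ran from 1.41 to 1.89 in Meis2 and from −4.0 to −1.8 in Foxn4.

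Set directly against the single knockouts, the double KO differed in 45 members from miR-290 KO iPSC (26 higher, 19 lower; of all genes 15.6% and 16.8%, together 32.4%) and in 51 from miR-302 KO iPSC (34 higher, 17 lower; of all genes 28.5% and 18.4%, together 46.9%). The median log2 fold changes of the members were −0.09 and 0.82, against 0.03 and 0.24 over all genes. These comparisons use the same double KO libraries as the one with WT, so they are given side by side. Tbx15 was higher by 4.38 ± 0.84 than in miR-290 KO iPSC and by 5.26 ± 0.84 than in miR-302 KO iPSC. Hoxb4 was higher by 3.84 ± 0.71 and 5.30 ± 0.71, and Tbx18 by 3.95 ± 0.82 and 5.12 ± 0.82. Of the 5 members called higher in miR-290 KO than in WT, 4 were higher again in the double KO than in miR-290 KO iPSC: Sox1 by 1.37 ± 0.45, Sox11 by 2.43 ± 0.35, Meis2 by 2.90 ± 0.34 and Foxd1 by 2.26 ± 0.73 (limma, adjusted p = 0.0333, 0.000208, 3.64e-05 and 0.0326). Gata3 was lower than in miR-290 KO iPSC (−3.85 ± 0.36, limma, adjusted p = 5.19e-06). The call of Sox1 was lost without any 1 colony of either group (adjusted p up to 0.13), and that of Foxd1 without colony 2 of the miR-290 KO or colony 1 of the double KO. Hoxb13 was at 14 ± 0.44 CPM in miR-290 KO iPSC and 12.9 ± 8.75 CPM in the double KO (−0.27 ± 0.53, limma, adjusted p = 0.737), and Meis3 at 11 ± 2.18 and 23.5 ± 6.36 CPM (1.07 ± 0.63, limma, adjusted p = 0.222). Pax6, Msx1 and Irx3 were lower than in miR-290 KO iPSC by 4.63 ± 0.66, 4.46 ± 0.77 and 5.18 ± 0.65 on the log2 scale. Msx2, the partner of Msx1 in limb and face, was at 23.4 ± 10.8 CPM in miR-290 KO iPSC, 2.80 ± 1.29 CPM in miR-302 KO iPSC and 13.3 ± 11.6 CPM in the double KO, and was called against miR-302 KO iPSC alone (2.77 ± 0.72, limma, adjusted p = 0.00721), a call lost without colony 2 of the double KO (adjusted p = 0.0859). Fewer members and a smaller share of all genes were called against miR-290 KO iPSC without its colony 2, a fit that rests on 1 colony.

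**Figure D4:**
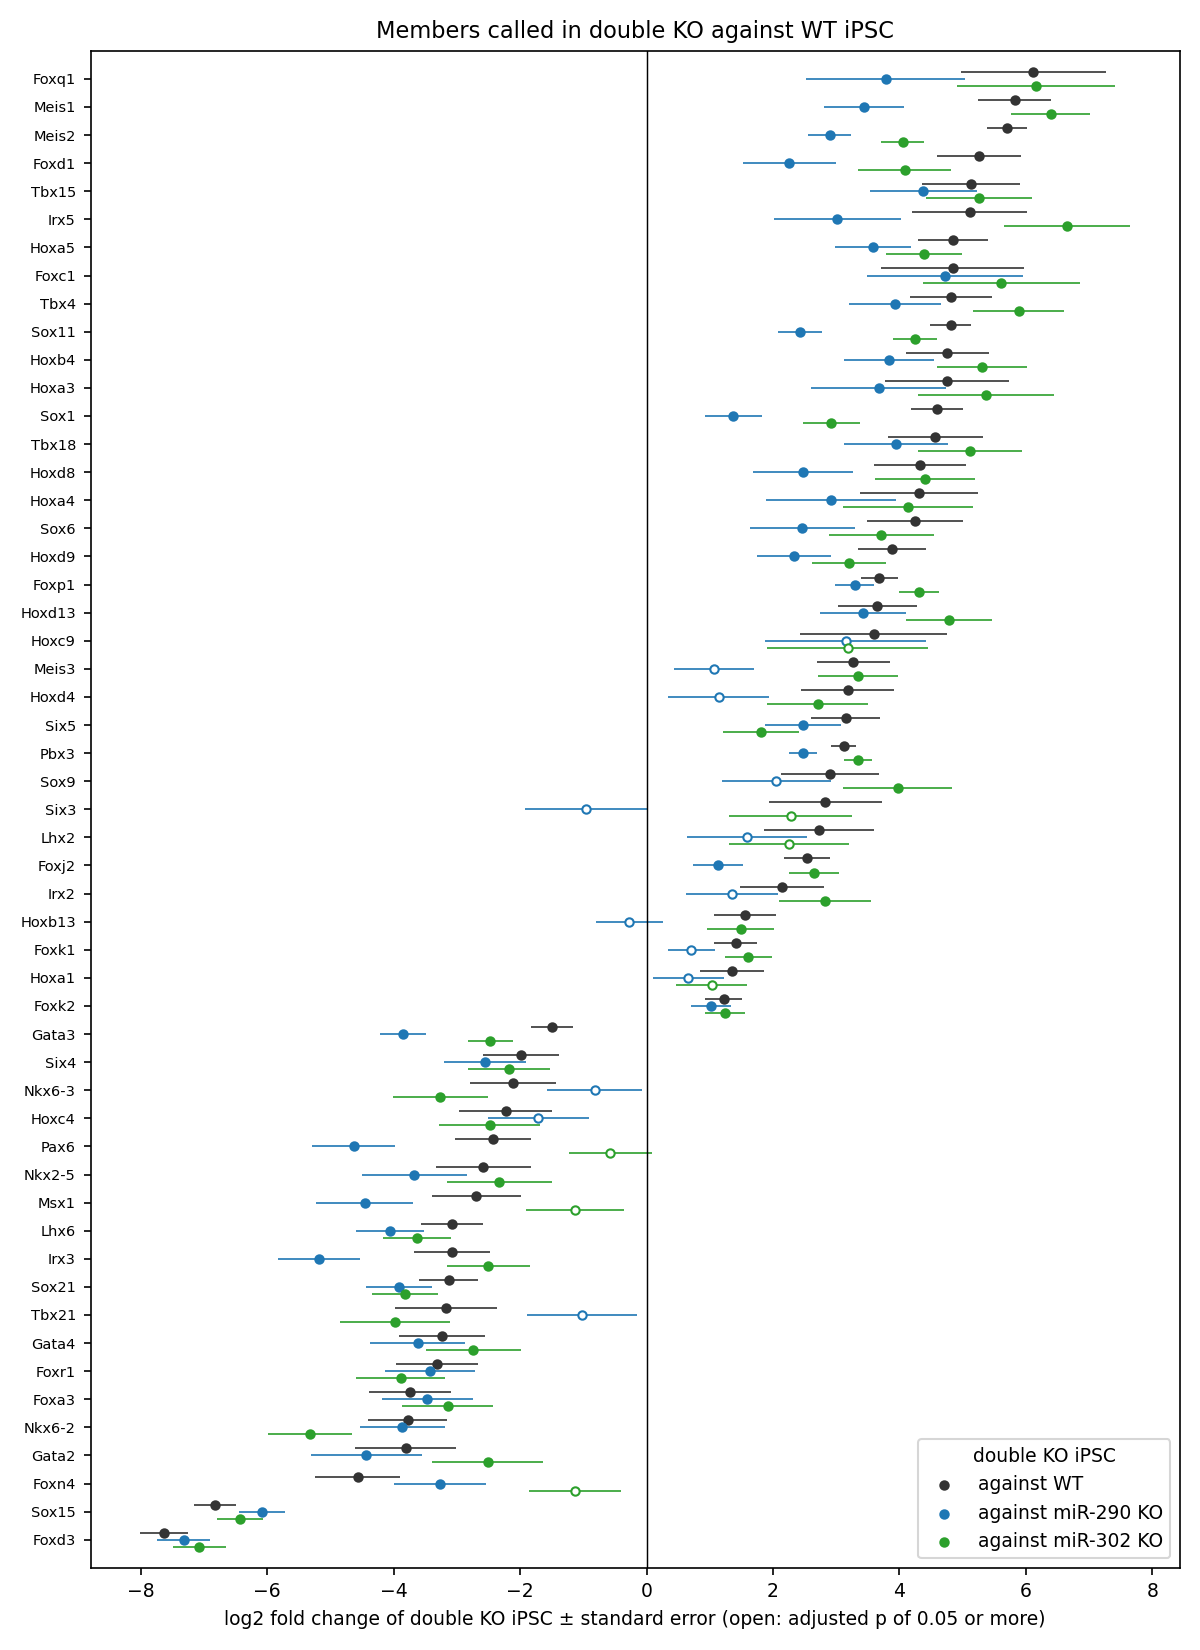
log2 fold change ± standard error of the double KO iPSC against WT, miR-290 KO and miR-302 KO iPSC for 53 of the 55 members called against WT. Filled points passed the adjusted p threshold; for Sox1, Sox11 and Meis2 the point against miR-290 KO lies nearest to 0.

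No member was called by limma between the 2 single-knockout ESC groups and the matching iPSC groups, with 2 samples in each group. Against the ESC of the same genotype, 6 members had an unadjusted p under 0.05 for the miR-290 KO and 12 for the miR-302 KO, and 0.0% of all genes were called in each case. Between the miR-290 KO and the miR-302 KO ESC no member was called, and 17 had an unadjusted limma p under 0.05. Of all genes 0.587% were called, 0.376% higher and 0.211% lower. The shares of all genes in these comparisons are at the adjusted threshold, and none was computed for the unadjusted p. Meis2 was at 53.6 ± 1.44 CPM in miR-290 KO ESC and 38.5 ± 19.4 CPM in miR-302 KO ESC, both above the WT iPSC mean of 11.8 ± 1.93 CPM. Sox11 was at 130 ± 22.7 and 73.4 ± 41.2 CPM. Pax6 was at 2.18 and 5.47 CPM in miR-290 KO ESC and 0.558 and 0.159 CPM in miR-302 KO ESC (2.97 ± 0.66, limma, adjusted p = 0.0688).

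Within the double KO, 50 members reached 5 CPM in at least 1 colony. Of these, 49 had reads in both colonies; the median ratio of the higher to the lower colony was 1.46, 33 members differed by less than 2-fold and 8 by at least 3-fold, 4 in each direction. The widest were Hoxb9 (28.4-fold), Foxc1 (19.2-fold), Hoxc9 (9.27-fold) and Sox6 (6.61-fold). Hoxa10, read in colony 2 alone, is the remaining member. Msx2 was at 4.87 and 5.43 CPM in colony 1 and 20.6 and 22.5 CPM in colony 2, and Sox12, an abundant SOX factor, at 36.8 and 38.6 against 10.2 and 11.5 CPM. In each of these genes the libraries of a colony were nearer to each other than to those of the other colony; with 2 libraries of each, the colonies were compared as values and not tested.

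**Figure D5:**
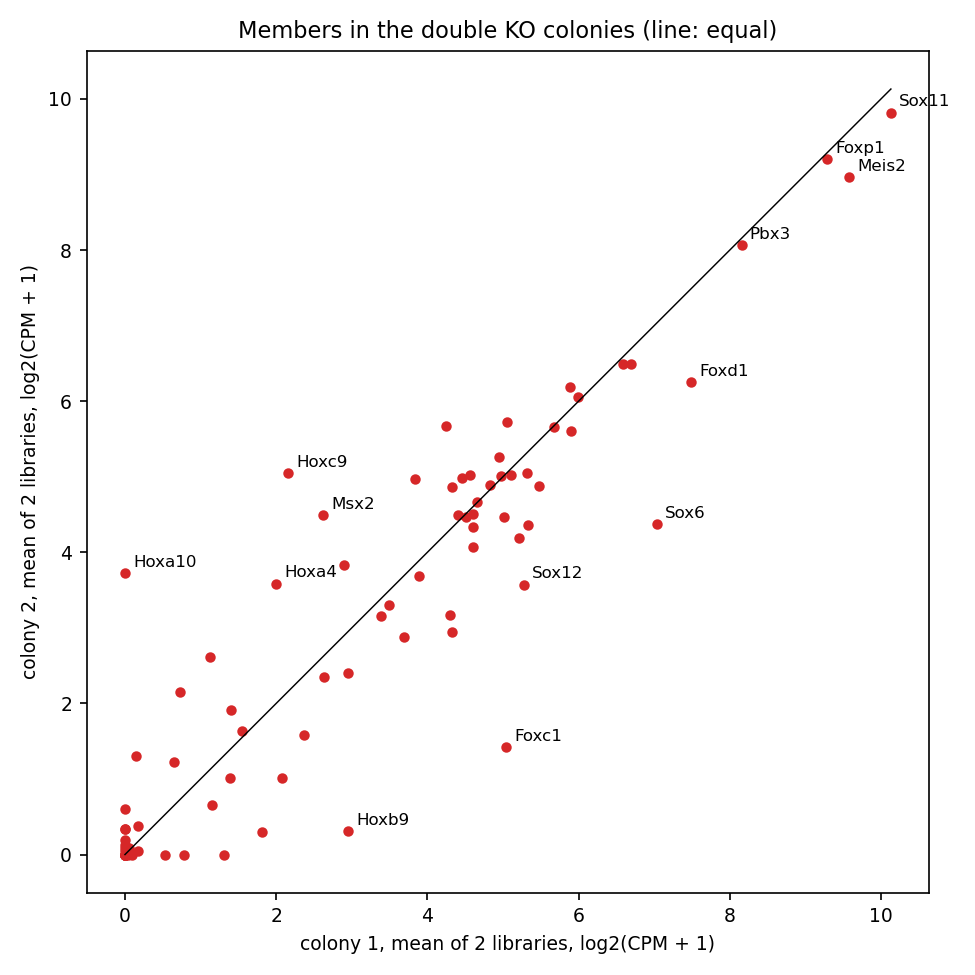
log2(CPM + 1) of the 83 members in colony 1 (horizontal) and colony 2 (vertical) of the double KO iPSC, each the mean of 2 libraries; the line marks equal levels. Sox11, Foxp1 and Pbx3 lie near the line, and Foxc1, Sox6 and Hoxb9 far below it.

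Matches to the shared seed were looked for in the 3′ untranslated regions of the GENCODE annotation (mm10), since these are where the missing microRNAs would pair. The motifs were AGCACTT, the reverse complement of the seed AAGUGCU, and GCACTTA, 6 bases of it followed by A, read on the transcript strand; the 2 can overlap. They were found in 15 of 83 members (18.1%) and in 2447 of 11801 genes (20.7%). Of the 15, 8 were higher in the double KO than in WT and 4 lower, with a median log2 fold change of 1.22, against 0.83 in the 68 members without a match. The share that was higher was 53.3% with and 39.7% without a match in the members, and 34.3% and 26.3% over all genes. Over all genes the medians were 0.41 with and 0.10 without. Regions with a match were longer (median 2715 against 1181 bases in the members, 2468 against 914 over all genes), and the part of length was not tested. Matches in 3 of the members that rose are shown, with the match in capitals and 5′ to 3′ on the transcript strand.
Pbx3: tttaaaaagaaAGCACTTtatccaattagg
Sox6: aggatgtttttAGCACTTgtttttgctcat
Foxj2: gttcactaaagAGCACTTtatttctttgta
The matches lie at chr2:34172688-34172694 (minus strand) in Pbx3, chr7:115471978-115471984 (minus strand) in Sox6 and chr6:122844480-122844486 (plus strand) in Foxj2. The members with the largest rises, Foxq1, Meis1, Meis2, Foxd1 and Tbx15, had no match, which says only that these letters are not in the annotated regions.

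Promoters, from 250 bases before to 50 bases after the start of the gene, were matched for 61 of the 83 members in the RefSeq table (GRCm38.p6). They held a median of 21 CpG per 300 bases, against 22 over the genes of the matrix and 8 over all promoters in the table. TGACAG, the core letters bound by MEIS proteins, was searched on both strands, as MEIS genes were among those that rose. It occurred in 23.0% of the members' promoters, 19.1% of those of the matrix and 21.6% of all promoters; TGATTNAT, letters bound by PBX with HOX, occurred in 3.3%, 1.6% and 3.7%. Promoters of the paralogues Foxd1, which rose, and Foxd3, which lost all reads, are shown because both hold TGACAG, in capitals (in Foxd3 as its reverse complement), so the letters occur with either direction of change.
Foxd1: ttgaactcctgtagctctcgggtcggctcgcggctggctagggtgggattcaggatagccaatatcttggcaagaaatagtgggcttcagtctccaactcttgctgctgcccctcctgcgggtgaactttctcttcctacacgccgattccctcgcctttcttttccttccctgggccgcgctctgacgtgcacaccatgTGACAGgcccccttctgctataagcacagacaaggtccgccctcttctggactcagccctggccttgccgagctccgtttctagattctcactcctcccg
Foxd3: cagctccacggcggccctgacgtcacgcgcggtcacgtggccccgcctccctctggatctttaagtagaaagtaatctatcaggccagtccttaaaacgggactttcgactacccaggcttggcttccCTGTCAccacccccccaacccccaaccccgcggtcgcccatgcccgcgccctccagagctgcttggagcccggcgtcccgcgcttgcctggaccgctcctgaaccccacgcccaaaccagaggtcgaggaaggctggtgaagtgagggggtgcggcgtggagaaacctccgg
The Foxd1 promoter is chr13:98353995-98354294 (plus strand) and the Foxd3 promoter chr4:99656049-99656348 (plus strand).

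The authors' deposited table of double KO against WT, which lists genes with an adjusted p of at most 0.05, held 60 members, 37 higher and 23 lower. Of the 55 members called here, 53 were in the authors' deposited table, all with the same direction, and Foxa3 and Six4 were not. That table comes from the same libraries and is no independent evidence. The authors' deposited table of miR-290 KO against WT held 22 members, 20 higher and 2 lower, and that of miR-302 KO against WT held 1, Meis2. Of the 12778 genes of the matrix, those shared with these tables when the recovery of reads was checked numbered 7507, 1305 and 38, in the same order.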

How the data were processed

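The authors deposited a matrix of log2 values for 12778 genes and 19 libraries, and 6 more columns of the matrix that match no sample described here were not used. Per the submitters' processing notes, the tools were Trim Galore 0.66, STAR, Salmon 1.4.0, FastQC 0.11.9, MultiQC, limma and DESeq2 1.34.0 with the build mm10; their roles and parameters are not given in the sources used here. By their steps, the deposited log2 values are log2 of CPM after a prior count in proportion to library size was added, less a constant per gene. Whole reads were recovered for 12236 genes (95.8%) within 0.02 of a read, and for all 83 members; CPM was computed from those reads. Per the file headers, the authors' deposited comparison tables give a mean normalized signal, log2 fold changes with standard errors, a test statistic (score) and a p-value with its adjusted value.

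The deposited log2 values were fitted with limma 3.58.1 in R 4.3.3 (lmFit, eBayes with a trend), with the 2 libraries of a colony averaged. The fit had 13 samples in 6 groups, 7 residual degrees of freedom, 8 comparisons and Benjamini-Hochberg adjustment over all genes, with a threshold of 0.05. Log2 fold changes include the prior and understate changes of low genes. Values of some members are not reported here, though counts and medians include them. A bound against a count of 0 uses 3 reads over the group. The script was tested on simulated data with 200 changed genes per run. Of changes of 1 on the log2 scale 14.4% to 18.2% were recovered, and of changes of 2, 55.4% to 60.8%. A member that was not called may therefore still have changed. In double KO against WT far more genes were called than were changed in a run. The members and all gene lists were chosen with earlier results of these data known. Members were named in full by rule. The rule took the 15 largest called rises and falls in double KO against WT and the 5 largest in other comparisons. It also took the most abundant of each family. Of the other lists it took the 3 largest called rises and falls, and the other core subunits beside Eed were added. Other members are named with their level, and those with a fold change (such as Hoxc4, Hoxa10, Msx2, Meis3, Hoxb13 and Foxo1) were singled out after their values were seen. Marker lists for extraembryonic endoderm, trophoblast and blood are reported with the other observations. Counts come from separate samples of a group, but where libraries are not separate derivations p-values cover only the spread between those libraries. Alternatives were each sample left out, another scaling, log2(CPM + 1), a filter on mean CPM, each library as a sample, only the groups compared, replicate blocks and, added after seeing the data, the library that stood apart left out.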

Additional observations from a re-analysis of the deposited data

Results flagged for a closer look

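In 46 groups of 4 libraries, 1 library lay far from the other 3 in 3 cases; chance gives about 1 in 20. Foxd3 was at 32.1 CPM in the first library of colony 1 of the miR-290 KO iPSC and at 19.9 to 20.8 CPM in the other 3. Sox15 was at 28.0 CPM in the second library of colony 1 of the miR-290 KO iPSC and at 18.7 to 19.4 CPM in the other 3. Tbx18 was at 40.5 CPM in the second library of colony 2 of the double KO iPSC and at 22.2 to 23.2 CPM in the other 3, all above WT.

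The authors' deposited table of double KO against WT also lists 19 genes of these families that the matrix used here does not hold, 12 higher and 7 lower. In the authors' deposited table the largest rises among them were those of Hoxb3 (log2 fold change 9.17 with an SE of 1.12, mean normalized signal 232) and Foxf2 (7.80, SE 1.41, signal 25), and Hoxa2 had the smallest adjusted p (6.32, SE 0.48, adjusted p = 1.54e-38). It also lists Tbx2 (4.78), Pax3 (4.65) and Dlx2 (4.30) as higher, and Foxr2 (−7.63) and Hoxb7 (−6.85) as lower.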

How the results depend on the processing

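With any 1 sample other than a double KO colony left out, 51 to 57 members were called in double KO against WT (41.7% to 51.6% of all genes). In the other settings 52 to 56 were called (41.8% to 52.6% of all genes). Fits without a double KO colony rest on 1 colony. Of 73 called results of single members recomputed, 57 kept their call in all alternatives. Calls lost in at least 1 setting were, in double KO against WT, those of Foxc1, Hoxc4, Hoxc9, Lhx2, Msx1, Nkx2-5 and Pax6; in miR-290 KO against WT, those of Meis2, Sox1, Sox11, Gata3 and Foxd1; in double KO against miR-290 KO, those of Foxc1, Foxd1 and Sox1; and in double KO against miR-302 KO, that of Msx2. In miR-290 KO against WT, log2(CPM + 1) gave 12 called members (3.02% of all genes) and each library as a sample 11 (3.2%). With the library that stood apart left out, 8 were called (2.65%, chosen after seeing the data). With a WT library left out, 4 were called (0.36% to 0.642%). Fits without a colony of the miR-290 KO rest on 1 colony. In miR-302 KO against WT, each library as a sample gave 1 (0.157% of all genes) and a WT library left out 0 (0.0235%). In double KO against miR-290 KO, single samples left out gave 29 to 46. In miR-302 KO iPSC against ESC, log2(CPM + 1) and each library as a sample gave 0 (0.0% of all genes). Leaving out a sample of either group leaves 1, so no count is given. Between the ESC groups, log2(CPM + 1) gave 1 (0.825% of all genes) and the library that stood apart left out 1 (1.01%). Msx2 in double KO against WT, not called at 0.94, was at −0.08 without colony 2 and 1.96 without colony 1 of the double KO; in the same order Hoxa10 was at −0.16 and 6.27 and Pbx4 at 0.52 and −0.14, and Hoxb13 against miR-290 KO at 0.48 and −1.02. The cause of these changes was not tested. Another scaling moved the median of all genes by −0.15 in double KO against WT, and 2 members changed sign. Library numbers did not pair samples (correlations of the deviations of same-numbered libraries ran from −0.32 to 0.32). With each library as a sample and the replicate number as a replicate block, 55 members were called in double KO against WT (41.8% of all genes). With the colony number as a replicate block, 39 were called against miR-290 KO (19.4%) and 46 against miR-302 KO iPSC (32.6%). Depth limits members under 1 CPM: 3 reads were 0.048 CPM over the double KO libraries and 0.058 CPM over WT.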

Other observations

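Markers of other cell types, from lists chosen with earlier results known, gave these values beside the members. The 9 measured extraembryonic endoderm markers summed to 3460 to 6180 CPM in the double KO libraries and 576 to 721 CPM in WT, most of it from Sparc (3420 ± 1280 against 548 ± 84.7 CPM). Of the 9, 4 were called higher, 3 lower (Gata4, Dab2 and Amn) and 2 did not pass the test; Col4a2 (5.54 ± 0.54), Col4a1 (4.86 ± 0.31) and Pth1r (2.97 ± 0.66), the largest rises on the log2 scale by limma, encode basement membrane collagens and a hormone receptor, while the endoderm factor Gata4 had no read and Amn and Dab2 were under 1 CPM. The 12 measured trophoblast markers summed to 17.4 to 75.2 CPM in the double KO and 191 to 627 CPM in WT; 9 were called lower, by most Krt18 (−6.91 ± 0.71), Krt8 (−6.20 ± 0.67) and Plet1 (−5.41 ± 0.63), and 0 higher. The 5 measured blood and endothelium markers summed to 40.4 to 54.6 CPM in the double KO and 89.0 to 120 CPM in WT; Kdr (6.02 ± 1.08), Runx1 (4.02 ± 0.71) and Tek (1.98 ± 0.47) were called higher and Pecam1 (−7.55 ± 0.32) lower. Their part in the results was not tested.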
